A study of Danio rerio with 12 samples.

Results

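Zebrafish larvae that lack normal Yap alone were compared with wild type at 3 days post-fertilization, by sequencing of polyadenylated RNA. The comparison used 8 of the 12 libraries of the series, chosen by genotype label: 4 of wild type (WT 1 to 4) and 4 of larvae homozygous for a yap mutation (yap-/-, yap mutant 1 to 4). No taz mutation is given for either group, and the 4 libraries of yap-/-;taz-/- larvae entered 1 alternative fit only. The source is given as larvae at this age, so each value is treated as an average over the tissues of the animal, and fewer cells of a type cannot be told apart from less RNA per cell. Genes that define liver, eye, muscle, skin, blood and gut were all detected in both genotypes. The kind of mutation, the strain and the number of larvae per library are not given in the labels.

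Yap is a transcriptional co-activator. The Hippo kinases phosphorylate it and hold it in the cytoplasm, and when they are inactive it enters the nucleus, binds TEAD factors and raises genes of growth, cytoskeleton and matrix. Taz, encoded by wwtr1, is its close relative. In zebrafish, yap is known for its part in forming the retinal pigment epithelium.

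The labels do not say whether libraries came from separate clutches, so the p-values reflect only how far these libraries spread. Total counts were 7763917 to 8657381 per library, and a count of 0 allows up to 3 counts, or 0.337 to 0.395 CPM (counts scaled to the usual total). The first principal component of log2 CPM held 42.1% of the variance and separated the genotypes, with WT at -35.3 to -6.44 and the yap mutant at -0.058 to 42.3. Yap mutant 3 was the mutant library nearest to WT. WT and mutant libraries that carry the same number deviated from their group means together, so results are also given with the number as a block.

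YAP1 (ENSDARG00000068401) was lower but present in the mutant, with 90.1, 88.4, 78.4 and 99.3 CPM in WT and 70.1, 52.1, 61 and 57.6 CPM in the yap mutant. The groups did not overlap (log2 fold change -0.57 ± 0.104, adjusted p = 0.00772, edgeR quasi-likelihood test). WWTR1 (ENSDARG00000067719), the taz gene, was at 7.07 CPM in WT and 10.4 CPM in the yap mutant, a difference that did not pass without the block (0.56 ± 0.166, adjusted p = 0.0685) and passed with it (adjusted p = 0.0204). Here and below, fold changes are log2 of the yap mutant over WT ± SE, levels are CPM ± SD over 4 libraries (n = 4), values per library run from 1 to 4, and a gene was called at an adjusted p under 0.05.

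Of 19146 genes tested, 1163 (6.07%) differed between the genotypes, 765 higher (4.0%) and 398 lower (2.08%) in the yap mutant. At least 2-fold changes were more often rises than falls, with 251 genes (1.31%) against 42 (0.219%). With the replicate number as a block 3380 genes (17.7%) differed, 1807 higher (9.44%) and 1573 lower (8.22%), and all 1163 were among them. Rises and falls were nearer in number with the block, with 53.46% of calls higher against 65.78% without it. Single libraries also moved the count. It was 2291 without yap mutant 3. It was 691, 651 and 600 without WT 1, 2 and 3 in turn, and 568, 692 and 597 without yap mutant 1, 2 and 4 in turn. In 1464 genes (7.65%) every mutant library lay above every WT library, and in 1093 (5.71%) below. Without the block 4441 genes had an unadjusted p under 0.05. A set of 357 genes (1.86%) was higher and 103 (0.538%) lower with the same call in the fit without the block, in the fit with it and in all 8 fits that leave out a library. They are called changed in every fit below. Most genes named from lists were taken from this set by smallest p, so a lack of overlap in them largely follows from the choice. The shares of all genes given here are the background for the counts of list members below. The lists were chosen with earlier results of these data known, so a share above this background may follow from that choice. Among these 19146 genes, leaving out a library gave 414 (yap mutant 1) to 1310 (yap mutant 3) rises and 151 (WT 3) to 963 (yap mutant 3) falls.

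**Figure D1:**
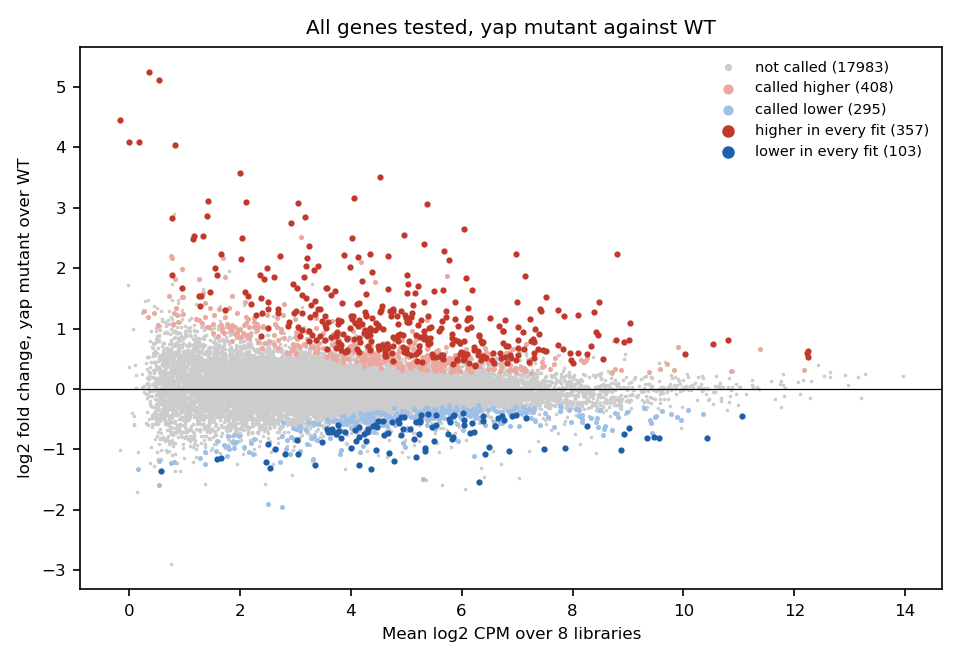
Log2 fold change of each of the 19146 genes tested, yap mutant over WT, against its mean log2 CPM over 8 libraries. Pale points were called at an adjusted p under 0.05, and dark points were called with the same sign in every fit (357 higher, 103 lower); the largest changes are rises.

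The largest rises included genes of proteases, a protease inhibitor and complement. The 12 largest were chosen among genes whose groups do not overlap, so the lack of overlap follows from the choice. ms4a17a.4 (ENSDARG00000014024), a member of the MS4A membrane protein family, had 0.449, 1.45, 0.874 and 1.6 CPM in WT and 13.5, 16, 7.19 and 15.9 CPM in the yap mutant. cbx7a (ENSDARG00000038025), a Polycomb-group gene, had 4.6, 9.09, 8.36 and 5.93 CPM in WT and 86.3, 66.5, 51 and 113 CPM in the yap mutant. In both, every mutant library lay several-fold above every WT library (3.58 ± 0.345, adjusted p = 0.000146 and 3.51 ± 0.26, adjusted p = 4.12e-05). TIMP2 (ENSDARG00000075261), 1 of the genes under the symbol of this metalloproteinase inhibitor, rose from 14.7 ± 2.06 to 124 ± 52.7 CPM (3.07 ± 0.247, adjusted p = 4.8e-05). The collagenase gene mmp13a (ENSDARG00000012395) rose from 3.38 ± 0.602 to 24.4 ± 11.4 CPM (2.85 ± 0.327, adjusted p = 0.000393). The gelatinase gene MMP9 (ENSDARG00000042816) rose from 5.93 ± 1.04 to 52.9 ± 32.6 CPM (3.16 ± 0.417, adjusted p = 0.000987). MMP9 and mmp13a were each low throughout WT, and their mutant libraries spread widely without reaching the WT range. Of 19 matrix metalloproteinase genes 2 rose and 0 fell without the block, with a median log2 fold change of 0.088. With the block 4 rose and 2 fell, so most of the family was not called. The mitochondrial glycine carrier gene SLC25A38 (ENSDARG00000059805), which serves heme synthesis, had 0.898, 0.395, 0.624 and 1.48 CPM in WT and 12.3, 5.24, 3.21 and 9.49 CPM in the yap mutant (3.11 ± 0.469, adjusted p = 0.00216). The neuropeptide gene CARTPT (ENSDARG00000035852) had 3.7, 2.5, 2.87 and 2.39 CPM in WT and 29.9, 17.6, 15.3 and 14.4 CPM in the yap mutant (2.74 ± 0.263, adjusted p = 0.000146). Neither overlapped between groups. The AP-1 gene FOSL1 (ENSDARG00000015355) was raised to 12.5 CPM from 1.47 CPM, the fatty acid synthase gene fasn2 (ENSDARG00000096762) to 4.95 CPM from 0.849 CPM, and scpp8 (ENSDARG00000093124), of the secretory calcium-binding phosphoproteins, to 5.46 CPM from 0.945 CPM. The lowest WT values of ms4a17a.4, SLC25A38, fasn2 and scpp8, at 0.395 to 0.449 CPM, were near the floor of 3 counts. The size and rank of their rises are therefore less certain.

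The largest falls were smaller and included genes known from liver and eye. The 12 largest falls were also chosen among genes whose groups do not overlap, so that trait was fixed by the choice. The lipid carrier gene of hepatocytes, fabp10a (ENSDARG00000038439), had 105, 185, 162 and 113 CPM in WT and 38.7, 72.7, 55.6 and 27.9 CPM in the yap mutant (-1.53 ± 0.258, adjusted p = 0.00437). Its mutant values lay below all WT values. Among cytochrome P450 genes, CYP8B1 (ENSDARG00000053068), of bile acid synthesis, fell from 54.2 ± 14 to 24.9 ± 7.07 CPM (-1.12 ± 0.207, adjusted p = 0.00798). The fatty acid hydroxylase gene CYP4V2 (ENSDARG00000062132) fell from 33.2 ± 8.19 to 13.3 ± 4.47 CPM (-1.32 ± 0.222, adjusted p = 0.00423). The cholesterol hydroxylase gene cyp46a1.1 (ENSDARG00000012137) fell from 11.6 ± 1.24 to 5.5 ± 0.609 CPM (-1.07 ± 0.149, adjusted p = 0.00128). The carboxylesterase gene ces3 (ENSDARG00000041595) fell from 126 ± 29.6 to 60.2 ± 9.75 CPM (-1.07 ± 0.16, adjusted p = 0.00202). Each of these 4 enzymes was below the WT range in all 4 mutant libraries. RPE65 (ENSDARG00000007480), the retinoid isomerase gene of the pigment epithelium, had 47.2, 45.7, 32.2 and 42 CPM in WT and 15.5, 14.3, 25.8 and 17.9 CPM in the yap mutant, again without overlap (-1.19 ± 0.175, adjusted p = 0.00193). Also among the 12 largest falls were the zinc transporter gene SLC30A8 (ENSDARG00000100917), known from islet beta cells (-1.31), the surfactant protein gene sftpba (ENSDARG00000094708) (-1.26), the carbonic anhydrase gene ca4b (ENSDARG00000042293) (-1.26), the guanylate cyclase activator gene guca1g (ENSDARG00000045737) (-1.2), the cornifelin gene cnfn (ENSDARG00000041115) (-1.08) and zyg11l (ENSDARG00000101799) (-1.16).

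**Figure D2:**
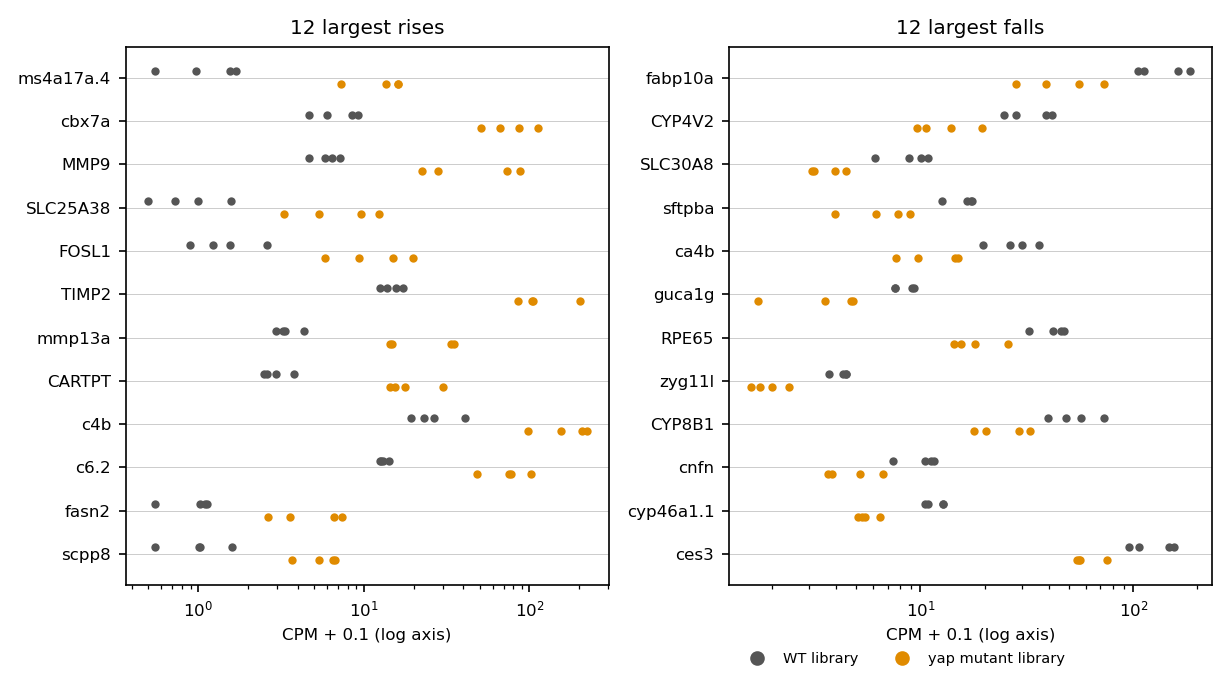
CPM + 0.1 of each library on a log axis for the 12 largest rises and 12 largest falls among genes changed in every fit (mean log2 CPM of at least 1, groups that do not overlap). Grey points are the 4 WT libraries and orange points the 4 yap mutant libraries; the groups do not overlap in any row, which the choice of genes required.

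Genes of cytokines, chemokines and their receptors were often called higher. Of 32 tested innate cytokines, chemokines and receptors, 14 rose and 1 fell, 8 and 0 of them in every fit, and their median log2 fold change was 0.64 against 0.0012 over all genes tested. The number of rises was 8 without mutant 4, and 19 without mutant 3. il6st (ENSDARG00000104693), the shared receptor subunit for interleukin 6-type cytokines, had 58.4, 60.3, 59.3 and 66.8 CPM in WT and 157, 132, 111 and 152 CPM in the yap mutant (1.17 ± 0.109, adjusted p = 0.000113). All 4 mutant libraries lay above all 4 WT libraries. The neutrophil chemoattractant gene cxcl8b.1 (ENSDARG00000102299) rose from 1.92 ± 0.757 to 8.61 ± 4.43 CPM (2.15 ± 0.392, adjusted p = 0.00746). Another chemokine gene, cxcl18b (ENSDARG00000075045), rose from 1.38 ± 0.699 to 6.47 ± 2.1 CPM (2.24 ± 0.34, adjusted p = 0.00219). Among receptors, CXCR4 (ENSDARG00000057633) rose from 5.3 ± 0.475 to 15.2 ± 3.25 CPM (1.51 ± 0.17, adjusted p = 0.000362). Receptor genes of type 2 cytokines rose as well, il13ra1 (ENSDARG00000080020) (1.14 ± 0.151, adjusted p = 0.000991) and il4r.1 (ENSDARG00000102583) (1.19 ± 0.175, adjusted p = 0.00191). The fall was in cxcl12b, while the other gene under this name, CXCL12 (ENSDARG00000037116), rose (0.49 ± 0.0844, adjusted p = 0.00528).

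Downstream of such receptors, 9 of 37 NF-kappaB and JAK-STAT genes rose (6 in every fit, 15 with the block, 6 without WT 1, mutant 1 or mutant 4, and 14 without mutant 3) and 0 fell in any of these fits, with a median of 0.40. SOCS3 (ENSDARG00000026611), the feedback inhibitor of this pathway, had the smallest p of all genes, with 16.8, 19, 16.7 and 17.2 CPM in WT and 101, 79, 76.2 and 111 CPM in the yap mutant (2.4 ± 0.129, adjusted p = 3.8e-06). STAT3 (ENSDARG00000022712), the transcription factor of the pathway, rose from 27.6 ± 2.38 to 63.6 ± 13.8 CPM (1.2 ± 0.144, adjusted p = 0.000538). Its kinase, JAK1 (ENSDARG00000020625), rose from 82.7 ± 4.44 to 140.2 ± 18.1 CPM (0.76 ± 0.0985, adjusted p = 0.000898). In all 3 the genotypes did not overlap. Among 11 suppressors of cytokine signalling SOCS3 alone was called without the block and 4 rose with it. Of 14 interferon response genes 2 rose, both in every fit, and the factor gene stat2 (ENSDARG00000031647) did not pass the test (0.079 ± 0.124, adjusted p = 0.741).

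AP-1 and ATF transcription factor genes, which respond early to stress and growth signals, rose in 8 of 25 cases and fell in 0 (6 rises in every fit, 6 without WT 1, WT 3, mutant 1 or mutant 4, and 11 without mutant 3). JUNB (ENSDARG00000074378) had 10.9, 13.4, 9.98 and 13.9 CPM in WT and 62.1, 43, 37 and 79.1 CPM in the yap mutant (2.2 ± 0.222, adjusted p = 0.000186). The second gene under this symbol, JUNB (ENSDARG00000104773), rose from 29.3 ± 5.85 to 90.7 ± 24.5 CPM (1.63 ± 0.188, adjusted p = 0.000409). ATF3 (ENSDARG00000007823), a stress-response factor, rose from 10.1 ± 0.582 to 34.6 ± 11.8 CPM (1.79 ± 0.216, adjusted p = 0.000573). Of 5 C/EBP genes, factors of acute-phase and myeloid transcription, 3 rose, among them CEBPB (ENSDARG00000042725) (1.63 ± 0.211, adjusted p = 0.000898) and CEBPD (ENSDARG00000087303) (1.15 ± 0.20, adjusted p = 0.00549). Their mutant values all lay above WT. Of 84 heat shock proteins and co-chaperones 3 rose (3.57%) and 2 fell (2.38%), near the 4.0% and 2.08% of all genes tested. In every fit 0 rose and 2 fell, and with the block 10 rose and 8 fell. Without the block the rises numbered 0 without WT 1, and 7 without mutant 3. The most abundant member, HSPA8 (ENSDARG00000068992), did not pass the test (0.15 ± 0.0806, adjusted p = 0.275).

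Myeloid lists held many rises, though not in all defining markers. Of 27 neutrophil genes 11 rose and 0 fell, 10 of the rises in every fit (15 and 2 with the block), with a median of 0.47. Most of these 10, such as TIMP2, mmp13a, MMP9, CEBPB and CEBPD, are known from other cells too, and 6 of the list's genes are in the macrophage list as well. The neutrophil lysozyme gene lyz (ENSDARG00000057789) had 21.5, 13.7, 25.2 and 19.4 CPM in WT and 16.3, 10.1, 12.7 and 15.4 CPM in the yap mutant. It did not pass without the block (-0.55 ± 0.19, adjusted p = 0.107) and was lower with it (-0.54 ± 0.125, adjusted p = 0.00785 with the block). The granule proteoglycan gene srgn (ENSDARG00000077069), found across blood cells, rose from 14.8 ± 2.65 to 35.9 ± 6.03 CPM (1.28 ± 0.155, adjusted p = 0.000581). Of 39 macrophage and microglia genes 9 rose and 0 fell, 4 of the rises in every fit, or 19 and 2 with the block (6 without WT 3, mutant 2 or mutant 4, and 15 without mutant 3), with a median of 0.52. The macrophage pore-forming protein gene MPEG1 (ENSDARG00000043093) rose from 9.75 ± 2.29 to 17.4 ± 4.77 CPM (0.84 ± 0.212, adjusted p = 0.0375), a call lost when single libraries were left out (adjusted p up to 0.12). The organic anion transporter gene slco2b1 (ENSDARG00000054609), which marks microglia, rose from 30.7 ± 4.08 to 62.3 ± 11.4 CPM in every fit (1.02 ± 0.137, adjusted p = 0.00101). The summed level of the neutrophil list was 589.9 to 754 CPM in WT and 899.8 to 1333 CPM in the yap mutant, and that of the macrophage list 1582 to 2247 CPM in WT and 2175 to 2586 CPM in the yap mutant. In pair 3 the macrophage sum was lower in the mutant (2175 against 2247 CPM). Their part in the other rises was not tested. lyz, MPEG1 and further genes listed with the methods were named after their values had been seen.

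Many genes of the complement system, plasma proteins made mostly in the liver, were higher. Of 24 tested complement genes 15 rose and 0 fell, 13 of them in every fit, with a median of 0.79. Of the central component, c3a.1 (ENSDARG00000012694) had 208, 157, 179 and 304 CPM in WT and 1161, 814, 726 and 1291 CPM in the yap mutant (2.23 ± 0.22, adjusted p = 0.000159). Its values rose about as far in each of the 4 mutant libraries. Of the activation steps, c4b (ENSDARG00000038424) of the classical pathway had 26.4, 19.1, 23 and 40.7 CPM in WT and 208, 156, 98.1 and 222 CPM in the yap mutant (2.64 ± 0.264, adjusted p = 0.000173). Factor B of the alternative pathway, cfb (ENSDARG00000055278), rose from 59 ± 8.63 to 276 ± 70.4 CPM (2.23 ± 0.171, adjusted p = 4.24e-05). Of the terminal pore, c6.2 (ENSDARG00000057113) rose from 13 ± 0.758 to 75.8 ± 22.4 CPM (2.54 ± 0.192, adjusted p = 4.12e-05). c7a (ENSDARG00000042172) rose from 8.41 ± 1.4 to 38.4 ± 17.1 CPM (2.18 ± 0.29, adjusted p = 0.001) and c9 (ENSDARG00000016319) from 182 ± 5.03 to 289 ± 39.1 CPM (0.67 ± 0.0951, adjusted p = 0.00152). The inhibitor gene cfh (ENSDARG00000100442), factor H, rose as well (0.70 ± 0.107, adjusted p = 0.00219). c7a, c9 and cfh were named after their values had been seen, so they do not speak for the complement genes not named. The 3 fibrinogen chain genes rose together, fga (ENSDARG00000020741) from 216 ± 9.58 to 526 ± 95 CPM, FGB (ENSDARG00000008969) from 179.6 ± 9.79 to 419 ± 53.3 CPM and FGG (ENSDARG00000037281) from 152 ± 6.88 to 349.9 ± 44 CPM (log2 fold changes 1.28, 1.22 and 1.2). In the wider list of complement, coagulation and acute phase 18 of 43 rose and 0 fell, or 21 and 3 with the block.

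Other hepatocyte genes moved in both directions. Of 44 in that list, 7 rose and 5 fell without the block, 9 and 15 with it, and 3 and 1 in every fit, with a median of -0.13. Without the block the falls numbered 1 without WT 2, WT 3, mutant 1 or mutant 4, and 9 without mutant 3, and the rises 4 without WT 1 or mutant 1, and 7 without mutant 3. CP (ENSDARG00000010312), the copper-carrying ferroxidase of plasma and an acute-phase protein, had 108, 99.8, 87.9 and 140.3 CPM in WT and 363, 256, 196 and 283 CPM in the yap mutant (1.33 ± 0.178, adjusted p = 0.00102). PCK1 (ENSDARG00000013522), of gluconeogenesis, rose from 136 ± 24.2 to 337 ± 33.6 CPM (1.31 ± 0.125, adjusted p = 0.00014). Against these, fabp10a was below WT in every library, and RBP4 (ENSDARG00000101199), the retinol carrier of plasma, was lower in this fit (-0.56 ± 0.128, adjusted p = 0.024) with the call lost when single libraries were left out (adjusted p up to 0.0739). Of 23 apolipoprotein genes, among the most abundant products of liver and yolk, 2 rose (8.7%) and 1 fell (4.35%), or 2 and 5 with the block. Over all genes tested 4.0% rose and 2.08% fell without it. The gene apoa1b (ENSDARG00000101324) was at 4848 CPM in WT and 5294 CPM in the mutant (0.13 ± 0.0818, adjusted p = 0.38). The abundant apobb.1 (ENSDARG00000022767) was higher (0.66 ± 0.14, adjusted p = 0.0168, up to 0.0588 with a library left out). The 1 apolipoprotein gene changed in every fit was APOD (ENSDARG00000057437), a lipocalin carrier, which fell from 37.2 ± 6.42 to 17.9 ± 1.96 CPM (-1.06 ± 0.132, adjusted p = 0.000705).

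Hypoxia-response genes rose in 7 of 28 cases and fell in 0, with 4 rises in every fit and 13 with the block (4 without mutant 2, and 10 without mutant 3), and a median of 0.42. Both genes for the vasodilator peptide adrenomedullin were among them. ADM (ENSDARG00000015263) had 6.85, 6.72, 9.11 and 4.67 CPM in WT and 35.7, 34.1, 30.4 and 53.8 CPM in the yap mutant (2.5 ± 0.213, adjusted p = 6.96e-05). ADM (ENSDARG00000069027) had 6.28, 9.35, 8.74 and 14.5 CPM in WT and 34.9, 38.4, 33.8 and 77 CPM in the yap mutant (2.24 ± 0.295, adjusted p = 0.000971). Every mutant library lay above every WT library for both. IGFBP1 (ENSDARG00000099351), an insulin-like growth factor binding protein that retards growth in zebrafish embryos under hypoxia, rose from 21.5 ± 7.28 to 69.9 ± 27.1 CPM (1.7 ± 0.283, adjusted p = 0.00399). The oxygen-regulated factor gene EPAS1 (ENSDARG00000008697) rose less (0.54 ± 0.0857, adjusted p = 0.00293).

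Of 374 solute carriers, 29 rose (7.75%) and 11 fell (2.94%), against 4.0% and 2.08% of all genes tested. In every fit 18 rose and 6 fell. With the block 50 rose and 37 fell, against 9.44% and 8.22% of all genes tested. Without the block the rises numbered 18 without mutant 4, and 45 without mutant 3. The falls numbered 6 without mutant 1 or mutant 4, and 18 without mutant 3. The monocarboxylate transporter-family genes SLC16A9 (ENSDARG00000013926) and SLC16A9 (ENSDARG00000104687) rose from 6.76 ± 0.728 to 31.7 ± 8.59 CPM and from 17.9 ± 3.04 to 59.9 ± 14 CPM (2.22 ± 0.192, adjusted p = 7.5e-05 and 1.74 ± 0.171, adjusted p = 0.000159). Of 22 amino acid transporters 5 rose and 1 fell (10 and 2 with the block; the rises numbered 3 without WT 1, WT 2, WT 4, mutant 1, mutant 2 or mutant 4, and 10 without mutant 3). Both genes for a transporter of large neutral amino acids rose. SLC43A2 (ENSDARG00000036848) went from 113 ± 9.27 to 226 ± 26.6 CPM (1.0 ± 0.0986, adjusted p = 0.000159) and SLC43A2 (ENSDARG00000061120) from 375 ± 56 to 646 ± 134 CPM (0.78 ± 0.143, adjusted p = 0.00751). The sodium-coupled transporter gene SLC38A2 (ENSDARG00000045886) fell from 119 ± 7.09 to 84.7 ± 8.63 CPM (-0.48 ± 0.0893, adjusted p = 0.00798). TXNIP (ENSDARG00000036107), which restrains glucose uptake and thioredoxin, rose from 249 ± 25.9 to 479.9 ± 69.9 CPM (0.94 ± 0.11, adjusted p = 0.000442). The glucagon genes of pancreatic alpha cells rose too. gcga (ENSDARG00000079296) had 15.2, 16.5, 14.4 and 12.09 CPM in WT and 36.4, 43.7, 33.6 and 68.1 CPM in the yap mutant (1.65 ± 0.203, adjusted p = 0.000659). GCG (ENSDARG00000040907) had 8.75, 6.72, 6.74 and 6.38 CPM in WT and 20.6, 19, 19.9 and 25 CPM in the yap mutant (1.56 ± 0.143, adjusted p = 0.000111). Neither overlapped between genotypes, and of 24 endocrine pancreas genes 3 rose and 1 (SLC30A8) fell, or 4 and 4 with the block.

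Some genes known from epidermis and from cell contact rose, most members of their lists not being called. Of 68 epidermis and periderm genes 13 rose and 2 fell without the block, 31 and 7 with it, and 8 and 0 in every fit (the rises numbered 8 without WT 3 or mutant 4, and 25 without mutant 3). In pairs 1 to 4 the median log2 ratios of the members were 0.394, 0.27, -0.054 and 0.364, so pair 3 went the other way. ANXA2 (ENSDARG00000003216), a calcium-dependent membrane binder, had 82.7, 105, 137 and 121 CPM in WT and 246, 259.9, 281 and 489.9 CPM in the yap mutant (1.52 ± 0.213, adjusted p = 0.00141). Its partner gene s100a10b (ENSDARG00000025254) rose from 91.6 ± 10.6 to 186 ± 52.8 CPM (1.02 ± 0.162, adjusted p = 0.00308). The keratin genes krt18a.1 (ENSDARG00000018404) and krt8 (ENSDARG00000058358), of simple epithelia, rose from 258 ± 25.1 to 481 ± 69 CPM and from 854 ± 70.9 to 1272 ± 139 CPM (0.90 ± 0.109, adjusted p = 0.000573 and 0.58 ± 0.0935, adjusted p = 0.00349). The abundant krt1-19e (ENSDARG00000090268) fell instead, from 2475 ± 226 to 1827 ± 155 CPM (-0.44 ± 0.0876, adjusted p = 0.0125), so that keratins split, with 2 of 22 higher and 3 lower, or 7 and 7 with the block. Claudins, which seal tight junctions, rose in 10 of 33 cases and fell in 1 (6 and 0 in every fit). With the block 12 rose and 5 fell, where 9.44% and 8.22% of all genes tested did. Without the block the rises numbered 6 without WT 1, WT 2 or mutant 4, and 12 without mutant 3. cldn7a (ENSDARG00000036376) rose from 33.9 ± 4.29 to 83.3 ± 16.9 CPM (1.3 ± 0.143, adjusted p = 0.000339). cldni (ENSDARG00000054616) rose from 204 ± 17.2 to 307 ± 38.9 CPM (0.59 ± 0.101, adjusted p = 0.00483). CLDN5 (ENSDARG00000014059), of vessels and brain barriers, rose from 22.1 ± 2.05 to 47.5 ± 6.33 CPM (1.1 ± 0.113, adjusted p = 0.000191). Their 4 mutant libraries were above the WT range in each case. Of 51 adhesion, integrin and laminin genes 7 rose and of 67 cadherins and protocadherins 2, or 19 and 7 with the block, and 0 of either list in every fit (without the block they numbered 0 and 0 without WT 3, mutant 1 or mutant 4, and 14 and 7 without mutant 3).

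Transporter genes of ionocytes, skin cells that take up salts from the water, and genes of 2 hormones that act on them were among the rises. These whole-larva values do not place a rise in a cell type. Of the 45 genes of the ionocyte list 15 rose and 0 fell, with 8 rises in every fit and 21 with the block (8 without WT 2, and 15 without mutant 3), and a median of 0.51; 7 of the 45 were brought in by a single family symbol of potassium channels. prl (ENSDARG00000037946), prolactin, the pituitary hormone of salt retention in fresh water, had 3.03, 2.24, 3.74 and 3.19 CPM in WT and 9.85, 14.2, 9.5 and 23.1 CPM in the yap mutant (2.2 ± 0.297, adjusted p = 0.00109). STC1 (ENSDARG00000058476), stanniocalcin, which lowers calcium uptake in fish, had 5.27, 9.61, 10.23 and 7.53 CPM in WT and 18.7, 29.8, 25.9 and 57 CPM in the yap mutant (2.02 ± 0.316, adjusted p = 0.00278). Both hormones were above the WT range in all 4 mutant libraries. Both genes are members of the ionocyte list and count among its rises, those in every fit included. Of the transporters, the sodium chloride cotransporter gene slc12a10.2 (ENSDARG00000071173) had 21.9, 25.6, 22.7 and 36 CPM in WT and 81.2, 83.5, 45.6 and 117 CPM in the yap mutant (1.62 ± 0.241, adjusted p = 0.00195). SLC12A3 (ENSDARG00000013855), of the same family and also in the pronephros list, rose from 12.8 ± 2.08 to 26.7 ± 5.66 CPM (1.07 ± 0.169, adjusted p = 0.00291). The chloride channel gene clcn2c (ENSDARG00000060439) rose from 17.5 ± 5.55 to 43.9 ± 11.1 CPM (1.32 ± 0.219, adjusted p = 0.00396). So did the sodium pump subunit gene atp1a1a.3 (ENSDARG00000039131), from 25.8 ± 3.35 to 53.8 ± 14.5 CPM (1.06 ± 0.173, adjusted p = 0.00365).

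**Figure D3:**
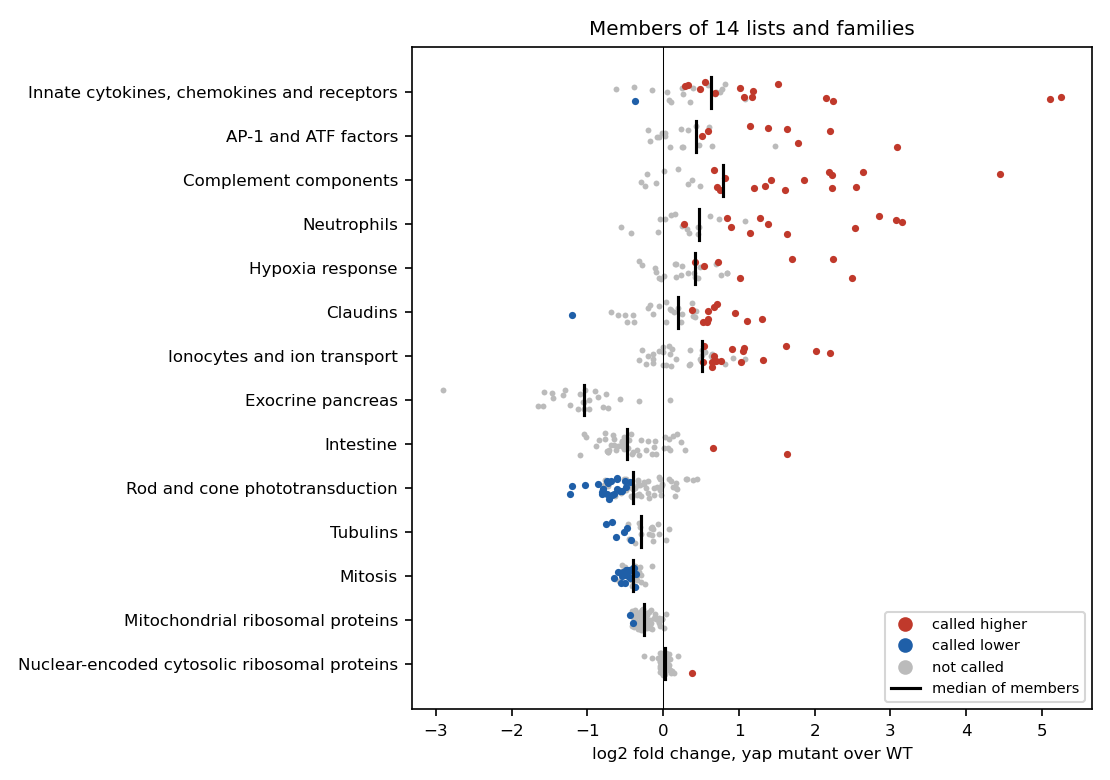
Log2 fold change, yap mutant over WT, of each tested member of 14 lists and families; red and blue points were called higher and lower without the block, grey points were not called, and the bar is the median of all members. Complement and cytokine members reach far to the right, while exocrine pancreas members, all but 4% of them, lie left of 0, and no member was called.

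Genes of the eye were among the falls, those of photoreceptors most often. Of 72 phototransduction genes 0 rose and 23 fell, 12 of them in every fit and 32 with the block (15 without WT 2 or mutant 1, and 25 without WT 4 or mutant 3), with a median of -0.40. The medians of the members' log2 ratios were -0.588, -0.33, -0.444 and -0.083 in pairs 1 to 4, so pair 4 differed little. The cone pigment genes named here, 1 for each cone class, fell by like amounts. The ultraviolet pigment gene OPN1SW (ENSDARG00000045677) had 1829.6, 2180.1, 1799 and 1599 CPM in WT and 779, 1183, 1154 and 1091 CPM in the yap mutant (-0.82 ± 0.131, adjusted p = 0.00319). Blue (opn1sw2 (ENSDARG00000017274)), red (opn1lw2 (ENSDARG00000044861)) and green (opn1mw1 (ENSDARG00000097008)) pigment genes had log2 fold changes of -0.75, -0.80 and -0.81. All 4 stood below WT in every mutant library, and opn1mw1 was named after its values had been seen. Among the steps that follow light capture, the rod transducin gene GNAT1 (ENSDARG00000044199) fell from 96.7 ± 18.1 to 58.8 ± 5.67 CPM (-0.72 ± 0.133, adjusted p = 0.00798). The cone opsin kinase gene GRK7 (ENSDARG00000020602) fell from 92.1 ± 9.8 to 55.5 ± 6.4 CPM (-0.73 ± 0.104, adjusted p = 0.00152). Of 26 opsins, non-visual ones included, 8 fell and 1 rose, the rise being in tmtops2b (ENSDARG00000027822), a teleost multiple tissue opsin (1.31 ± 0.268, adjusted p = 0.0142).

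The pigment epithelium and retinoid cycle, which renew the chromophore, had 7 of 29 genes lower and 2 higher (3 and 1 in every fit). The falls numbered 3 without WT 2 or mutant 1, and 9 without mutant 3. The medians of the members' log2 ratios were -0.057, -0.271, 0.076 and -0.565 in pairs 1 to 4, so pair 3 went the other way. Beside RPE65, the retinal carrier gene rlbp1a (ENSDARG00000012504) fell from 47.2 ± 4.32 to 26.6 ± 5.19 CPM (-0.83 ± 0.132, adjusted p = 0.00318). The opsin-like rgrb (ENSDARG00000098724) fell from 23.3 ± 3.09 to 13.4 ± 2.68 CPM (-0.80 ± 0.148, adjusted p = 0.0085). The rise in every fit was in BHMT (ENSDARG00000013430), a methyltransferase gene that liver expresses too (0.81 ± 0.119, adjusted p = 0.00191). In the lens 10 of 49 genes fell and 0 rose (1 in every fit, 20 with the block, 2 without WT 3 or mutant 1, and 18 without WT 1), the one in every fit being MIP (ENSDARG00000037285), the fibre-cell water channel (-0.42 ± 0.0845, adjusted p = 0.0125). The summed lens level was 8727 CPM in WT 1, within the 7841 to 9296 CPM of the yap mutant. In WT 2 to 4 it was 12250 to 12380 CPM. The medians of the lens members' log2 ratios were -0.139, -0.421, -0.412 and -0.337 in pairs 1 to 4. Of 60 genes of retinal interneurons and Muller glia 3 were higher and 8 lower (1 and 3 in every fit), or 4 and 18 with the block. Without the block the falls numbered 3 without mutant 1, mutant 2 or mutant 4, and 13 without mutant 3. There the calretinin genes calb2b (ENSDARG00000036344) and CALB2 (ENSDARG00000041062) fell (-0.48 ± 0.0965, adjusted p = 0.0137 and -0.44 ± 0.0927, adjusted p = 0.0158), and GLUL (ENSDARG00000100003), glutamine synthetase of glia and muscle, rose (0.58 ± 0.0821, adjusted p = 0.00149).

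Neuronal genes shifted little and less securely. Of 86 genes of neuron growth and synapse 14 fell and 0 rose without the block and 29 fell and 1 rose with it, but 0 in every fit (the falls numbered 0 without mutant 1, and 20 without mutant 3), with a median of -0.11. The most abundant member, the tubulin gene tubb2b (ENSDARG00000098591), fell from 807 ± 38 to 566 ± 119.5 CPM (-0.51 ± 0.121, adjusted p = 0.0283), a call lost when single libraries were left out (adjusted p up to 0.0895). Of 22 tubulins 6 fell, or 11 with the block, 0 in every fit (the falls numbered 0 without WT 3, mutant 1 or mutant 2, and 10 without mutant 3), whereas tubb4b (ENSDARG00000002344), the most abundant, had 889.9 and 936 CPM (0.074 ± 0.0664, adjusted p = 0.538). Among 39 glutamate receptor genes 1 was called and among 28 GABA and glycine receptor genes 0, against 3 and 2 with the block. At an unadjusted edgeR p under 0.05, 1 gene of the latter family was higher and 4 were lower, with 0 called by DESeq2. In that family GLRB (ENSDARG00000052769), the glycine receptor beta subunit, had the highest level and did not pass (-0.17 ± 0.10, adjusted p = 0.323).

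Cell division genes were lower in small steps. Of 50 mitosis genes 17 fell without the block, 41 with it and 4 in every fit, and 0 rose (the falls numbered 5 without WT 1, WT 3, mutant 2 or mutant 4, and 28 without mutant 3), with a median of -0.40. The kinesin gene kif15 (ENSDARG00000012073), of the spindle, had 38.2, 32.4, 36.6 and 37.7 CPM in WT and 28.2, 25.2, 28.2 and 24 CPM in the yap mutant (-0.46 ± 0.0938, adjusted p = 0.0144). Its ranges did not overlap. Of 53 DNA replication genes 9 fell without the block and 29 with it, 1 in every fit (1 without mutant 2 or mutant 4, and 19 without mutant 3). FOXM1 (ENSDARG00000003200), the factor that drives mitotic genes, fell from 18.7 ± 1.12 to 11.4 ± 1.37 CPM (-0.71 ± 0.119, adjusted p = 0.00438). The proliferation marker mki67 (ENSDARG00000091150) fell from 223 ± 14.7 to 162 ± 23.8 CPM (-0.47 ± 0.104, adjusted p = 0.0214), with the call lost when single libraries were left out (adjusted p up to 0.0661).

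Genes of exocrine pancreas and intestine were called lower with the block and not without it. Of 25 exocrine pancreas genes, which encode digestive enzymes, 0 were called without the block, and 21 were lower with it, although their median log2 fold change of -1.05 was the furthest from 0 of the lists described. Trypsin prss1 (ENSDARG00000042993) had 397, 943, 649 and 271 CPM in WT and 207, 440.3, 342 and 98.1 CPM in the yap mutant. In both genotypes library 2 was highest, then 3, then 1, then 4, and the mutant was the lower of every pair. The groups therefore overlapped (-1.05 ± 0.421, adjusted p = 0.157) while within pairs the difference passed the test (-1.1 ± 0.0852, adjusted p = 5.55e-07 with the block). The carboxypeptidase gene CPB1 (ENSDARG00000045442) (-1.27 ± 0.0752, adjusted p = 3.7e-08 with the block), the elastase gene CELA1 (ENSDARG00000017314) (-1.05 ± 0.0813, adjusted p = 5.4e-07 with the block) and chymotrypsinogen ctrb.1 (ENSDARG00000090428) (-0.82 ± 0.0774, adjusted p = 4.27e-06 with the block) had the same order of libraries in both genotypes. Without the block, 13 of the 25 genes were lower at an unadjusted edgeR p under 0.05, and DESeq2 called 0. With a pair left out, 20 to 22 members were lower with the block. The mean log2(CPM + 1) of the 25 genes was 5.36, 6.71, 6.24 and 4.99 in WT and 4.63, 5.68, 5.15 and 3.42 in the yap mutant. The medians of the members' log2 ratios were -0.73, -1.08, -1.03 and -1.37 in pairs 1 to 4. Of the 25 genes 21 also differed by library number, where 738 of all genes (3.85%) did.

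Of 53 intestine genes, 2 of which are also pancreatic, 2 rose and 0 fell without the block and 33 fell with it, 21 to 31 with a pair left out. The median log2 ratios were -0.50, -0.44, -0.35 and -0.27 in pairs 1 to 4, so the mutant was lower in each pair. The enterocyte fatty-acid-binding protein gene FABP2 (ENSDARG00000006427) had 268, 610.3, 446 and 189.9 CPM in WT and 146, 364, 266 and 126 CPM in the yap mutant. Pairs 1 to 4 all fell while the groups overlapped (-0.75 ± 0.366, adjusted p = 0.244, and -0.74 ± 0.0693, adjusted p = 3.83e-06 with the block). The brush-border genes VIL1 (ENSDARG00000040466) (-0.71 ± 0.0742, adjusted p = 1.1e-05 with the block) and ANPEP (ENSDARG00000103878) (-1.1 ± 0.0897, adjusted p = 9.38e-07 with the block) had the same pattern. Of the 53 genes 33 differed by library number. The 2 rises were CEBPB and apobb.1 (ENSDARG00000022767), an apolipoprotein of yolk, liver and gut at 2141 and 3384 CPM (0.66 ± 0.14, adjusted p = 0.0168, up to 0.0588 with a library left out). Both are also expressed outside the gut.

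**Figure D4:**
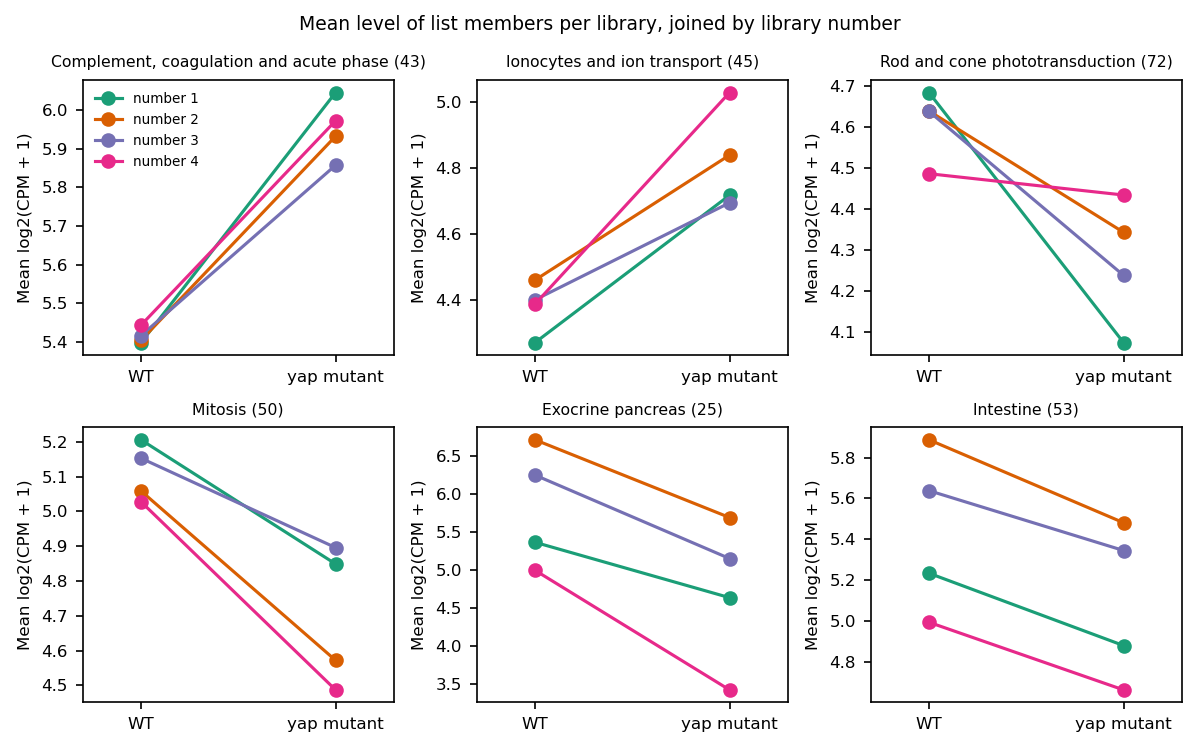
Mean log2(CPM + 1) of the members of 6 lists in each library, with WT and yap mutant libraries of the same number joined. In complement and ionocyte genes all mutant libraries lie above all WT libraries; in exocrine pancreas and intestine the numbers keep their order and every line falls, so groups overlap although each pair differs.

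Families of basic cell function held few calls without the block. Of 81 cytosolic ribosomal protein genes 1 rose and 0 fell, with a median of 0.018, and RPL3 (ENSDARG00000003599) stood at 2626 CPM in WT and 2633 CPM in the mutant. More genes of mitochondrial families were lower with the block, in numbers that depended on single pairs. Of 73 mitochondrial ribosomal proteins 2 fell without the block and 19 with it (median -0.25; the falls numbered 0 without WT 1, WT 2, WT 3, mutant 1, mutant 2 or mutant 4, and 17 without mutant 3). Of 38 subunits of respiratory complex I, 0 and 11 fell in the same order (median -0.18), and of 20 ATP synthase subunits 0 and 8 (median -0.17). Fold changes without the block were positive in 2.74%, 2.63% and 0% of these 3 families, against 50.15% of all genes tested. Nearly all members were thus lower by small amounts, most of them not called. With the block but without number 2 the falls were 2, 1 and 1 in these 3 families, and without number 3 they were 29, 21 and 10. They were also fewer without number 1 (6, 2 and 3) and without number 4 (14, 3 and 4). Without yap mutant 3 the counts without the block were 17, 13 and 7. ATP5F1B (ENSDARG00000070083), the catalytic beta subunit of ATP synthase, had 1684, 1980.3, 1867 and 1559 CPM in WT and 1409, 1592, 1781 and 1382 CPM in the yap mutant (-0.20 ± 0.101, adjusted p = 0.255). Its groups overlapped. At an unadjusted edgeR p under 0.05 without the block, 9 complex I and 6 ATP synthase genes were lower, and DESeq2 called 0 in either family.

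More muscle genes were called higher than lower. Of 76 fast and slow muscle genes 11 rose (14.5%) and 3 fell (3.95%), against 4.0% and 2.08% of all genes tested. Their median log2 fold change was 0.17, and 77.6% of members had a positive one. In every fit 5 rose and 2 fell. With the block 26 rose and 6 fell, where 9.44% and 8.22% of all genes tested did. Without the block the rises numbered 5 without WT 1, and 17 without mutant 3. The cytosolic creatine kinase gene ckma (ENSDARG00000035327) had 3527, 4049, 4205 and 3945 CPM in WT and 5614, 5599.9, 6402 and 6723 CPM in the yap mutant (0.63 ± 0.0861, adjusted p = 0.00118). The mitochondrial creatine kinase gene CKMT2 (ENSDARG00000069615) had 159, 183, 176 and 144 CPM in WT and 69.3, 78.5, 105 and 73.3 CPM in the yap mutant (-1.02 ± 0.128, adjusted p = 0.000786). The former was above WT and the latter below it in every mutant library. The AMP deaminase gene AMPD1 (ENSDARG00000033832) rose from 335 ± 26.1 to 584 ± 82.3 CPM (0.80 ± 0.103, adjusted p = 0.000859). The calcium-release channel gene RYR3 (ENSDARG00000071331) rose from 98 ± 11.4 to 172 ± 23.3 CPM (0.81 ± 0.112, adjusted p = 0.00123). Of 9 parvalbumins, calcium buffers of fast muscle, 0 rose and 1 fell without the block, and 1 rose and 4 fell with it. The most abundant, pvalb1 (ENSDARG00000037789), stood at 9151 and 10852 CPM without overlap and passed only with the block (0.25 ± 0.0769, adjusted p = 0.0783; 0.25 ± 0.0677, adjusted p = 0.0206 with the block). The fall, in every fit, was in PVALB (ENSDARG00000009311), from 56.9 ± 5.62 to 37.6 ± 5.4 CPM (-0.59 ± 0.111, adjusted p = 0.00843). In the heart list of 26 genes 3 rose and 1, CKMT2, fell, and the natriuretic peptide gene nppa (ENSDARG00000052960) rose from 9.53 ± 1.67 to 18.4 ± 2.2 CPM (0.94 ± 0.147, adjusted p = 0.00274).

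Several contractile genes of smooth muscle were lower. acta2 (ENSDARG00000045180), smooth muscle actin, had 225, 313, 272 and 205 CPM in WT and 105, 152, 142 and 113 CPM in the yap mutant (-0.99 ± 0.147, adjusted p = 0.00201). MYH11 (ENSDARG00000009782), the smooth muscle myosin heavy chain, had 97.4, 98.1, 93.7 and 102 CPM in WT and 69.3, 81.5, 67.6 and 69.2 CPM in the yap mutant (-0.44 ± 0.0811, adjusted p = 0.00775). Neither overlapped between genotypes. Of the same kind, chosen after their values had been seen, the calponin gene CNN1 (ENSDARG00000102398) (-0.82 ± 0.204, adjusted p = 0.0356) and the light chain gene MYL9 (ENSDARG00000038123) (-0.41 ± 0.101, adjusted p = 0.034) fell, with calls lost when single libraries were left out (adjusted p up to 0.0932 and 0.099). The smooth muscle gene TAGLN (ENSDARG00000033466) went the other way, from 91.6 ± 7.38 to 133 ± 17.7 CPM (0.54 ± 0.102, adjusted p = 0.00959). So did the actin-severing genes CAPG (ENSDARG00000099672) (0.76 ± 0.137, adjusted p = 0.00698) and GSN (ENSDARG00000011459) (0.50 ± 0.0921, adjusted p = 0.00826). The whole actin list had 6 of 54 higher and 7 lower, or 19 and 12 with the block, so more members were lower without it and more were higher with it. The rises without the block numbered 3 without WT 1, WT 3 or mutant 4, and 16 without mutant 3, and the falls 2 without WT 2, mutant 1 or mutant 4, and 8 without mutant 3.

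Fibrous and matricellular matrix genes were called in both directions. THBS1 (ENSDARG00000103775), a thrombospondin, had 25.1, 30.0, 19.6 and 32.4 CPM in WT and 118, 99.9, 77.4 and 178 CPM in the yap mutant (2.14 ± 0.23, adjusted p = 0.000279). Fibronectin FN1 (ENSDARG00000006526) rose from 221 ± 12.4 to 602 ± 203 CPM (1.44 ± 0.214, adjusted p = 0.00193), and CCN5 (ENSDARG00000077882), of the CCN family of matricellular proteins, rose from 2.96 ± 0.858 to 8.43 ± 1.23 CPM (1.51 ± 0.212, adjusted p = 0.00141). The elastin gene elnb (ENSDARG00000069017) had 24.4, 24.9, 20.7 and 19 CPM in WT and 12.8, 12.6, 9.88 and 9.61 CPM in the yap mutant (-0.98 ± 0.14, adjusted p = 0.00152). The microfibril gene mfap2 (ENSDARG00000059367) fell from 124 ± 2.06 to 91 ± 9.61 CPM (-0.45 ± 0.0855, adjusted p = 0.00959). Their groups did not overlap. Of 76 fibrous and matricellular matrix genes 10 rose (13.2%) and 4 fell (5.26%), 4 and 4 in every fit, or 16 and 9 with the block. Without the block the rises numbered 5 without WT 1, WT 3, mutant 1 or mutant 4, and 11 without mutant 3. Of 56 collagens 1 rose and 1 fell (1.79% each), not above the 4.0% and 2.08% of all genes tested. With the block 5 rose and 11 fell, where 9.44% and 8.22% of all genes tested did. Of 54 remodelling enzymes and inhibitors 11 rose (20.4%) and 1 fell (1.85%), 8 and 1 of them in every fit.

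Genes listed as direct targets of YAP and TAZ were more often higher than lower in the mutant. Of 45 of that signature 8 rose and 0 fell, 3 in every fit, with a median of 0.30 (15 and 1 with the block; the rises numbered 3 without mutant 1, and 11 without mutant 3). The stress kinase gene NUAK2 (ENSDARG00000063661) rose from 10.9 ± 1.4 to 17.9 ± 1.33 CPM (0.72 ± 0.127, adjusted p = 0.0057). The angiomotin-family gene amotl2b (ENSDARG00000061948) rose from 30.1 ± 2.7 to 60.4 ± 13.9 CPM (1.01 ± 0.143, adjusted p = 0.00152). The matricellular gene CCN2 (ENSDARG00000042934) rose from 103 ± 5.18 to 165 ± 27.2 CPM (0.68 ± 0.108, adjusted p = 0.00298). Each of the 3 was above the WT range in every mutant library. In endothelium 8 of 42 rose and 2 fell (2 and 1 in every fit; the rises numbered 2 without WT 3, and 11 without mutant 3). The lymphatic receptor gene lyve1a (ENSDARG00000075833) had 3.37, 5.79, 4.62 and 6.04 CPM in WT and 13.2, 16, 11.4 and 17.9 CPM in the yap mutant (1.56 ± 0.203, adjusted p = 0.000922).

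Patterning families held few calls. Over all genes tested 4.0% rose and 2.08% fell, or 9.44% and 8.22% with the block. Of 46 Hox genes 1 rose and 0 fell (4 and 0 with the block). Of 22 fibroblast growth factors 0 were called in either fit, of 21 T-box genes 0 (1 higher and 2 lower with the block) and of 24 Sox genes 1 each way. At an unadjusted edgeR p under 0.05 without the block, 0 fibroblast growth factors passed, and 4 T-box genes were higher and 3 lower, with 0 called by DESeq2 in either family. Among 55 genes of Wnt signalling 2 rose and 0 fell, and CTNNB1 (ENSDARG00000014571), beta-catenin, had 555 CPM in WT and 546 CPM in the mutant (-0.023 ± 0.067, adjusted p = 0.867). Among 29 Notch genes 1 rose and 0 fell. Of 35 erythrocyte genes 3 rose (8.57%), SLC25A38 among them, and 1 fell (2.86%), above the shares of all genes tested. With the block 6 rose and 1 fell. The globin gene hbae3 (ENSDARG00000079305) stood at 695 and 702 CPM (0.013 ± 0.166, adjusted p = 0.972). Of 51 forkhead genes 3 rose (5.88%) and 2 fell (3.92%), 2 and 1 of them in every fit, or 7 and 3 with the block. FOXJ1 (ENSDARG00000101919), the factor for motile cilia, rose from 6.53 ± 0.508 to 15.5 ± 3.0 CPM (1.24 ± 0.162, adjusted p = 0.000931). FOXO1 (ENSDARG00000099555), a factor that insulin restrains, rose from 14.2 ± 1.36 to 26.3 ± 2.64 CPM (0.89 ± 0.113, adjusted p = 0.000855). A p above the threshold does not show that these genes were equal.

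**Figure D5:**
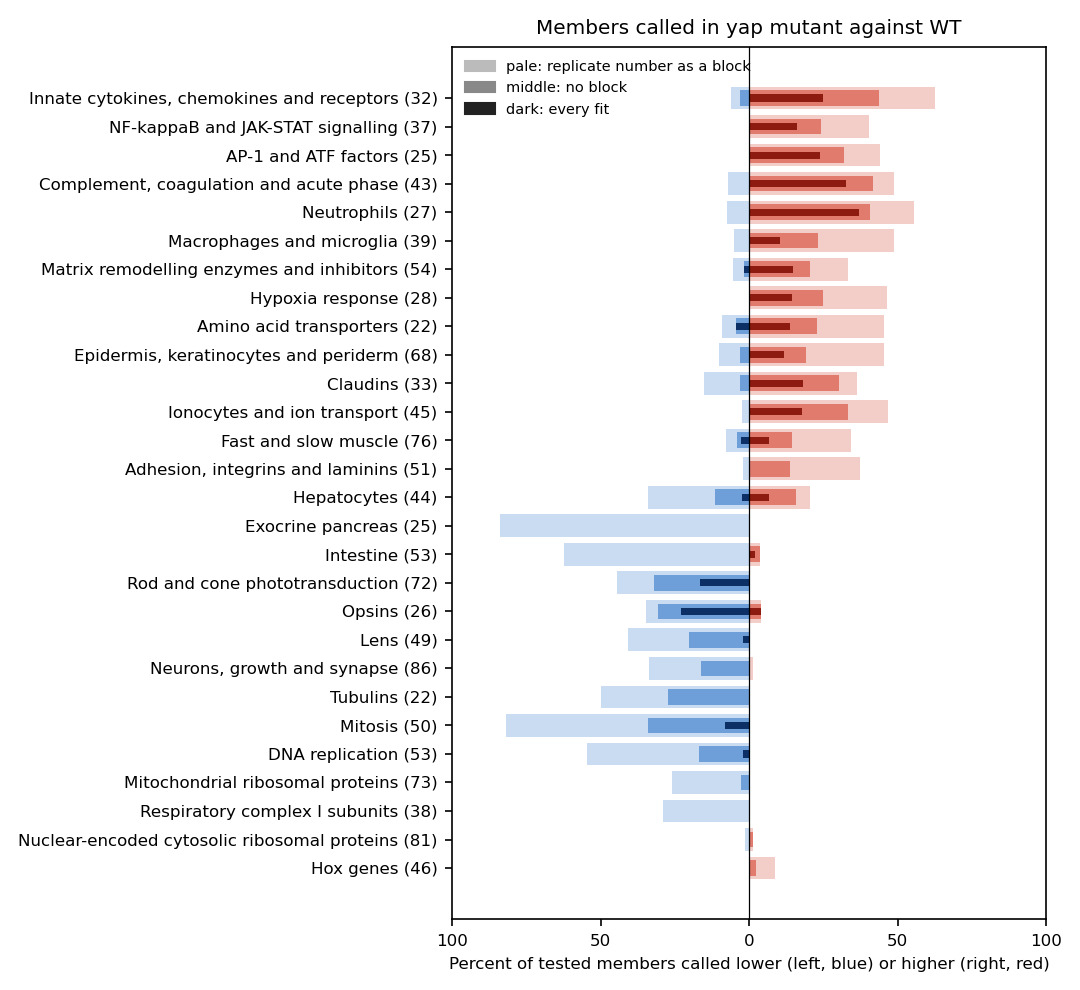
Percent of tested members called higher (right, red) or lower (left, blue) in the yap mutant for 28 lists and families, with the number tested in brackets. Pale bars are counts with the replicate number as a block, middle bars without it, and dark bars genes called in every fit; over all genes tested 4.0% were higher and 2.08% lower without the block.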

How the data were processed

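The deposited table, made by the authors, gives unnormalized read counts of 25473 Ensembl genes, of which 1243 were 0 in all 8 libraries. Per the submitters' processing notes the tools were STAR 2.3.0e and HTSeq 0.6.0, and per the labels' protocols RNA was taken up in Trizol, cleaned on columns and run on an Illumina HiSeq. No genome build, annotation or strand setting is given in the sources used here. Overlapping genes and near-identical paralogues may therefore share or lose reads. Symbols came from a supplied list of names (22531 identifiers), often without the paralogue letter, so identifiers are printed.

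Genes passed filterByExpr at a minimum count of 10 and a minimum total of 15. Libraries were scaled by TMM and tested two-sided with the quasi-likelihood test of edgeR 4.0.16 under R 4.3.3, 4 against 4 libraries, without a block. Calls were made at a Benjamini-Hochberg adjusted p under 0.05 over all 19146 genes tested. The alternatives were the replicate number as a block, RLE size factors, no filter, all 12 libraries, DESeq2 1.42.0 and each library left out in turn. The block with each number left out was chosen after seeing the data. The fit was tested on simulated counts with known changes.

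The numbers 1 to 4 come from the titles, which do not say what they pair. Across genes, deviations from the group mean of WT and yap mutant libraries correlated at 0.189, 0.307, 0.288 and 0.392 for numbers 1 to 4, above the 0.1 set for pairing. Libraries of different numbers correlated at -0.329 to 0.15. Of these, WT 2 with yap mutant 3 (0.15) and WT 4 with yap mutant 1 (0.118) also lay above 0.1, so this limit alone does not separate pairs from other combinations. Libraries of the same genotype did not agree within sampling noise in any combination (chi-square per gene 3.67 to 9.93), and the floor of 3 counts covers counting error only.

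The members, the 58 lists and the 52 families were chosen with earlier results of these data known. They match 4020 genes, 3609 of them tested, and hold 445 of the 1163 genes called. Of the 2263 listed symbols that matched a gene, 587 did so by a family symbol without the paralogue letter. Such a match takes in every gene under that symbol, so list counts can include paralogues that were not listed. A deltaD symbol that matched dihydrolipoamide dehydrogenase and a rhob symbol that matched another gene were removed from their lists after values had been seen. Named by rule were yap1 and wwtr1, and the 12 largest rises and 12 largest falls among genes called in every fit (mean log2 CPM at least 1, no overlap, no clone names). Up to 4 members of each list called in every fit followed by smallest p, with the same limits on level and name but not on overlap. Lists with fewer than 3 members called in every fit also gave their 2 most abundant members. The text uses part of these, and some genes are not reported here. Named after their values were seen were lyz, MPEG1, c7a, c9, cfh, clcn2c, atp1a1a.3, opn1mw1, GNAT1, tmtops2b, CPB1, CELA1, FABP2, VIL1, ANPEP, CNN1, MYL9, TAGLN, mfap2 and cxcl12b. Promoter motifs were not analysed here.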

Additional observations from a re-analysis of the deposited data

Results flagged for a closer look

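Within a group of 4 libraries, 1 library stood apart from the other 3 by Dixon's 95% limit in 20 of 286 gene and group combinations of the genes named above. Chance flags about 1 in 20 groups, and the genes of 1 library are not independent. In WT 1 the levels were 31.2 CPM for STAT3 (ENSDARG00000022712) against 26.2 to 26.6 CPM in the others of its genotype, 8.75 CPM for GCG (ENSDARG00000040907) against 6.38 to 6.74 CPM, 125 CPM for MIP (ENSDARG00000037285) against 153 to 154 CPM and 159.8 CPM for calb2b (ENSDARG00000036344) against 170.3 to 172 CPM. In WT 2 the level was 38.1 CPM for JUNB (ENSDARG00000104773) against 25.8 to 27 CPM in the others of its genotype. In WT 3 the levels were 6.36 CPM for il4r.1 (ENSDARG00000102583) against 6.16 to 6.19 CPM in the others of its genotype and 4.24 CPM for CCN5 (ENSDARG00000077882) against 2.47 to 2.62 CPM. In WT 4 the level was 69.5 CPM for GNAT1 (ENSDARG00000044199) against 105 to 107 CPM in the others of its genotype. In yap mutant 1 the levels were 74.8 CPM for ces3 (ENSDARG00000041595) against 54.5 to 56 CPM in the others of its genotype, 50.3 CPM for GNAT1 (ENSDARG00000044199) against 61.4 to 61.8 CPM, 7.61 CPM for tmtops2b (ENSDARG00000027822) against 3.72 to 4.36 CPM and 85.7 CPM for CALB2 (ENSDARG00000041062) against 108 to 110.3 CPM. In yap mutant 2 the level was 81.5 CPM for MYH11 (ENSDARG00000009782) against 67.6 to 69.4 CPM in the others of its genotype. In yap mutant 3 the levels were 26.9 CPM for srgn (ENSDARG00000077069) against 38 to 40.0 CPM in the others of its genotype, 20.8 CPM for APOD (ENSDARG00000057437) against 16.5 to 17.2 CPM and 743 CPM for tubb2b (ENSDARG00000098591) against 482 to 522 CPM. In yap mutant 4 the levels were 202 CPM for TIMP2 (ENSDARG00000075261) against 85.7 to 105 CPM in the others of its genotype, 77 CPM for ADM (ENSDARG00000069027) against 33.8 to 38.4 CPM, 489.9 CPM for ANXA2 (ENSDARG00000003216) against 246 to 281 CPM and 265 CPM for s100a10b (ENSDARG00000025254) against 156 to 166 CPM. Yap mutant 4 was the high library for ADM, ANXA2, s100a10b and TIMP2, whose rises were called without it as well. Yap mutant 3, the mutant library nearest to WT on the first principal component, lay towards the WT values for srgn, APOD and tubb2b. What sets these libraries apart was not tested.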

How the results depend on the processing

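The count of 1163 genes (765 higher, 398 lower) was within 1.5 times with RLE size factors and without a filter. With all 12 libraries it was 1780 (1115 higher, 665 lower), and DESeq2 called 1539 (930 and 609), with 373 adjusted p-values missing. With the replicate block, which rests on the pairing of library numbers, it was 3380 (1807 and 1573), and with a number left out of that block 1696 to 3346 (921 to 1779 higher, 712 to 1567 lower). The block without number 1 gave 1843 (922 lower), without number 2 712 lower, without number 3 3346 (1779 and 1567) and without number 4 2338 (1271 and 1067). With a library left out the count was 568 (without yap mutant 1) to 2291 (without yap mutant 3), with 414 to 1326 higher and 152 to 965 lower. The share of calls that were higher moved with the setting, from 65.78% to 53.46% with the block and to between 57.88% and 74.67% with a library left out. The cause was not tested. Of the 143 genes given with values 124 were called without the block and 117 in every fit, and 0 called genes changed direction under any alternative. Calls on small differences are limited by 4 libraries a group.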

Other observations

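With genotype in the model, 738 of 19146 genes (3.85%) differed by library number. Among genes changed in every fit, the median log2 ratio of the risen genes was 1.08, 0.887, 0.656 and 1.1 in pairs 1 to 4, and that of the fallen genes -0.723, -0.697, -0.583 and -0.658. Pair 3 had the smallest ratio in both, in a set chosen on the same libraries.

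Genes near yap1 were called at a share near the background. Of the 100 nearest genes placed by a symbol found once in the RefSeq gene order (GRCz12tu), 4 were higher and 4 lower (8%), where 6.18% of the 13453 placed genes were called.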
